A study of Mus musculus with 6 samples.

Results

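The genes of the constitutive proteasome and of its assembly were measured in LSK cells (lineage marker-negative, Sca-1+ and c-Kit+ cells), the fraction of mouse bone marrow that holds haematopoietic stem cells and early progenitors. Any array probe for a gene whose name starts with *Psma*, *Psmb*, *Psmc*, *Psmd*, *Psme*, *Psmf* or *Psmg* was taken, apart from the inducible catalytic subunits *Psmb8*, *Psmb9* and *Psmb10*, which served for comparison. This gave 46 of the 37074 named genes on the array, namely 16 genes of the core particle, 17 of the cap, 5 of the activators and the inhibitor, 7 of the assembly factors and 1 that is no proteasome gene, *Psmc3ip*, a recombination protein that shares the prefix. They were covered by 90 probes, and 29 of the genes had more than 1 probe.

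RNA came from 3 control samples of genotype Atg5w/w;VaviCre+ and 3 samples of genotype Atg5f/f;VaviCre+, here called Atg5f/f;Vav, in which *Atg5*, a gene needed to form autophagosomes, is flanked by loxP sites. All 6 samples carried the Cre transgene, were on the C57BL/6 background and came from mice at P6 to P8. The Vav promoter drives Cre in blood cells of every lineage from the embryo onwards, so the deletion is not limited to LSK cells. Neither the labels nor the methods say whether a sample was 1 mouse or a pool, so n and the errors below refer to arrays, and p-values measure only the spread between these samples.

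Each sample was hybridised to a 1-colour Agilent array, and signals are given as log2 intensity minus the array's 75th percentile, so that a signal of 0 equals that percentile. The 75th percentile of intensity lay between 651.7 and 746.2 on control arrays and between 620.3 and 881.4 on the others. The share of non-control spots well above background was 59.4% to 59.9% on control arrays and lower, 53.6% to 56.7%, on the others. With so few arrays, their number sets the precision. The 6 arrays shared 1 slide and 1 scan, and the genotypes took different rows of that slide (row 1 for controls, row 2 for Atg5f/f;Vav), so position and genotype cannot be told apart. *Atg5* itself had 1 probe, whose control signals were 1.10, 0.93 and 1.06, against 1.46, 1.51 and 1.74 on the arrays labelled Atg5f/f;Vav. It was higher by 0.54 (SE 0.12, adjusted p = 0.0209, limma) where the label says that the gene was deleted, and whether the probe lies in the deleted part was not determined, so every direction below rests on the labels. The third array labelled Atg5f/f;Vav stood farthest from the controls, with correlations of 0.952 to 0.963 with them across probes, against 0.976 to 0.986 for the other two.

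LSK markers were detected on the arrays, but several moved between the groups. *Kit*, whose product is used in the sort, had a signal of 3.93 to 4.12 on control arrays and 3.50 to 3.82 on the others, and *Ly6a*, which encodes the sort marker Sca-1, rose by 1.57. *Mecom* and *Hlf*, transcription factor genes of stem cells, fell by 1.75 and 1.65. Of 16 proliferation genes 15 rose, with a median of 0.70 over the 16, and of 10 interferon-induced genes all 10 rose, by 1.51 to 4.76. The summed linear signal of the proliferation list was 226.5 to 276.0 on control arrays and 351.4 to 428.1 on the others, and that of the interferon list 26.1 to 28.4 and 117.1 to 229.0. Of the 5 stromal genes, *Col1a1*, *Col1a2* and *Sparc* were highest on control replicates 2 and 3, with *Col1a1* at -4.14, 3.23 and 2.95 on control arrays and at most -5.16 on the others, whereas *Cxcl12* (-0.59, -2.19 and -3.12 on control arrays) and *Col3a1*, too dim to be tested, were highest on control replicate 1, and the summed signal of the 5 stromal genes was 2.83 to 30.9 against 0.993 to 1.60. The globin *Hba-a1* fell by 2.26 while the erythroid regulator *Klf1* rose by 2.95, and of the 6 neutrophil genes 4 fell and *Mpo* rose. The macrophage genes *C1qa* and *Mrc1* and the T cell genes *Cd3g* and *Cd8a* were too dim to be tested, and of the other macrophage, T and NK cell, mast cell and eosinophil genes none passed, while of 5 B cell genes *Cd79a* rose and of 5 megakaryocyte genes 2 rose and 2 fell. The part of these differences in the results below was not tested, and fewer cells of a type cannot be told apart from less RNA per cell.

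The proteasome degrades proteins that carry ubiquitin. Its core particle is a stack of rings made of alpha and beta subunits, and the cleaving sites, on the subunits encoded by *Psmb5*, *Psmb6* and *Psmb7*, face an inner chamber. The regulatory cap on the ends of the core has a base, in which 6 ATPases unfold the substrate, and a lid, which removes ubiquitin. Other particles, the PA28 complexes and PA200, can take the place of the cap, and dedicated chaperones put the core and the base together. Haematopoietic cells also make inducible catalytic subunits that replace the constitutive ones when cells meet interferon-gamma.

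The probes behind the results are 60-mers, given here 5′ to 3′ with their place on mm9. Those of *Psmb2* come first, because its probes disagreed. The pair designed on its RefSeq mRNA spans 2844 bases of the plus strand of chromosome 4 each (chr4:126361432-126364275 and chr4:126361456-126364299), so both cross a splice junction, and capitals mark the 36 bases they share. The third, designed on another transcript, lies at chr4:126362768-126362827, inside the stretch that both skip.
Psmb2 at base 269 of the mRNA: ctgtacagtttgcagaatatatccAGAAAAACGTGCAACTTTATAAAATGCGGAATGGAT
Psmb2 at base 293 of the mRNA: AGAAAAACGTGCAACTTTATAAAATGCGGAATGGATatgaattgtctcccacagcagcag
Psmb2 at base 1580 of the other transcript: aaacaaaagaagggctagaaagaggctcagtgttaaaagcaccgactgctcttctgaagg
Stretches of 16 bases from the third probe, on either strand, also occurred in 15 of 32851 RefSeq promoter windows, whereas none of those windows held one from either spliced probe. The next 5 are single probes that the results rest on, for 2 catalytic subunits, for the largest rise in the cap, for PA28 beta and for the inhibitor. *Psmb5* lies at chr14:55233161-55233220 (minus strand), *Psmb7* at chr2:38468966-38489385 (minus strand, across 20420 bases and so spliced), *Psmc5* at chr11:106124192-106124376 (plus strand, spliced), *Psme2b* at chr11:48759495-48759554 (minus strand) and *Psmf1* at chr2:151555353-151555412 (minus strand).
Psmb5: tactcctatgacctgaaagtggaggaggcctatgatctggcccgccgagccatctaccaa
Psmb7: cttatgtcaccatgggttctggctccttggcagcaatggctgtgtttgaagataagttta
Psmc5: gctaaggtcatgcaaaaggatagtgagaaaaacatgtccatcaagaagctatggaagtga
Psme2b: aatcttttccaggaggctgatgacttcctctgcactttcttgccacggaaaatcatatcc
Psmf1: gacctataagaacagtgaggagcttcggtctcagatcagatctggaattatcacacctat
The *Psme2b* probe matches transcripts of both *Psme2* and *Psme2b*, as did the other probe of that name, so these genes are described together.

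Proteasome genes were higher almost throughout in the arrays labelled Atg5f/f;Vav. Of 45 proteasome genes, 44 were well above background on at least 3 arrays and were tested by their brightest probe, and 38 of them rose while none fell (limma, adjusted p under 0.05 over all probes). In the same comparison 18.7% of all genes rose and 15.3% fell. The rises of the 38 genes ranged from 0.50 to 1.14 on the log2 scale, which is 1.41- to 2.20-fold, with SE of 0.11 to 0.19 and adjusted p between 0.0124 and 0.0274. The median over the 44 genes was 0.69, against -0.03 for all 20778 genes and -0.06 for all probes. For the 16 proliferation genes it was 0.70. After quantile normalisation 25 of the genes rose, with a median of 0.36. Of the core 5 genes then passed, and of the cap 13. Those that did not pass included *Psma1*, *Psma4*, *Psma6*, *Psmb1*, *Psmb3*, *Psmb4*, *Psmb5*, *Psmb6*, *Psmc6*, *Psmd1* and *Psmg4*, and the partner *Pomp*. For 42 of the 44 genes every array labelled Atg5f/f;Vav was above every control array, which held for 29.6% of all genes. The gene that could not be tested, *Psmb11*, encodes the thymus-specific form of the catalytic beta 5 subunit and was not well above background on any array.

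**Figure D1:**
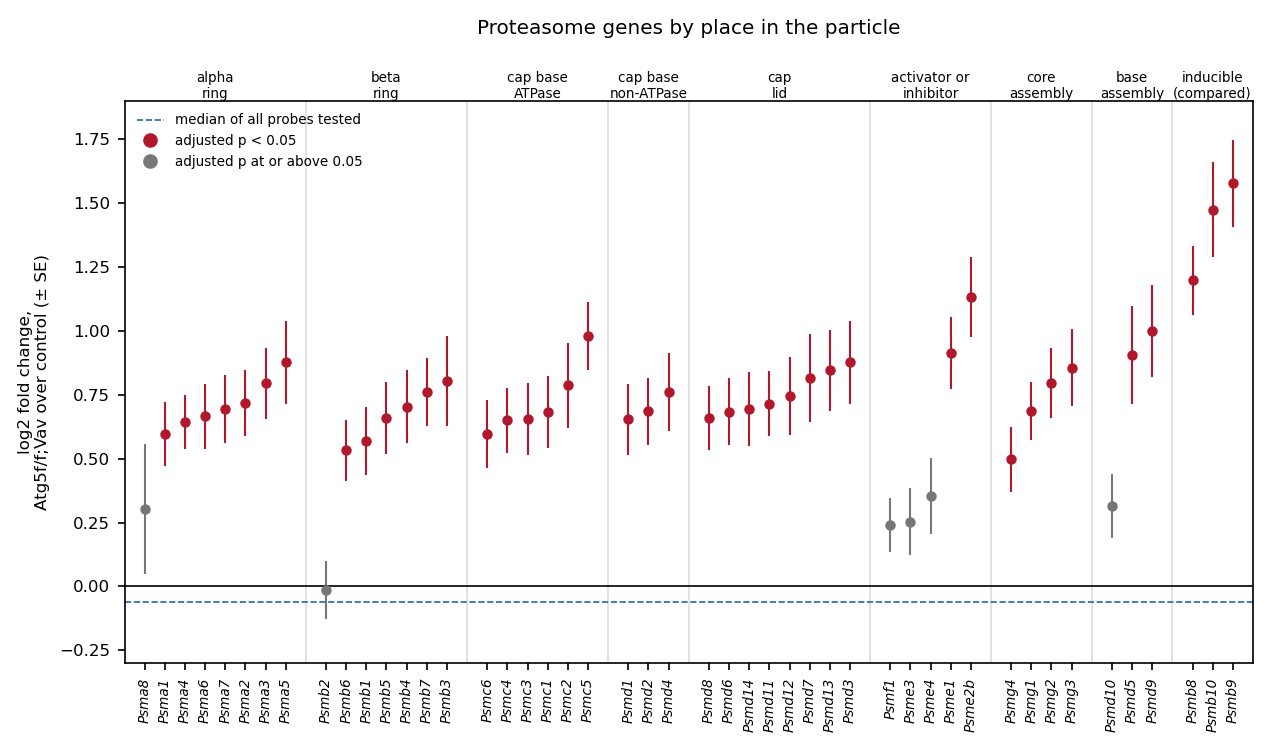
Log2 fold change (arrays labelled Atg5f/f;Vav over control, 3 arrays each, bars are standard errors from limma) of each proteasome gene by its brightest probe, ordered by place in the particle, with the inducible catalytic subunits at the right. Red points passed an adjusted p of 0.05, grey points did not, and the dashed line is the median of all probes tested (-0.06). The red points of core and cap lie between 0.53 and 0.98.

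The genes that rose also shared an order of arrays within each group. Control replicate 3 was the highest control array for all 38 genes that rose, and the third array labelled Atg5f/f;Vav was the highest of its group for all 38. The share of all genes with this order was not computed. Across all tested probes control replicate 3 was the control array nearest to the arrays labelled Atg5f/f;Vav. Its correlations with them were 0.963 to 0.986, against 0.952 to 0.978 for control replicates 1 and 2. The median deviation from the control mean over the 44 genes was -0.04, -0.08 and 0.12 on control arrays and 0.56, 0.63 and 0.91 on the others, so the distance between the groups was larger than the spread within either. The calls depended on which control arrays were present. Without control replicate 1 the adjusted p of the 38 genes was 0.0628 to 0.0910 and without control replicate 2 it was 0.0628 to 0.1020, and none passed (limma), although 38 of the 44 genes were higher at an unadjusted p under 0.05 in both cases. Over all probes these fits called only 188 and 155 higher, against 5540 with all 6 arrays. With any other array left out, 37 or 38 of the genes passed.

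**Figure D2:**
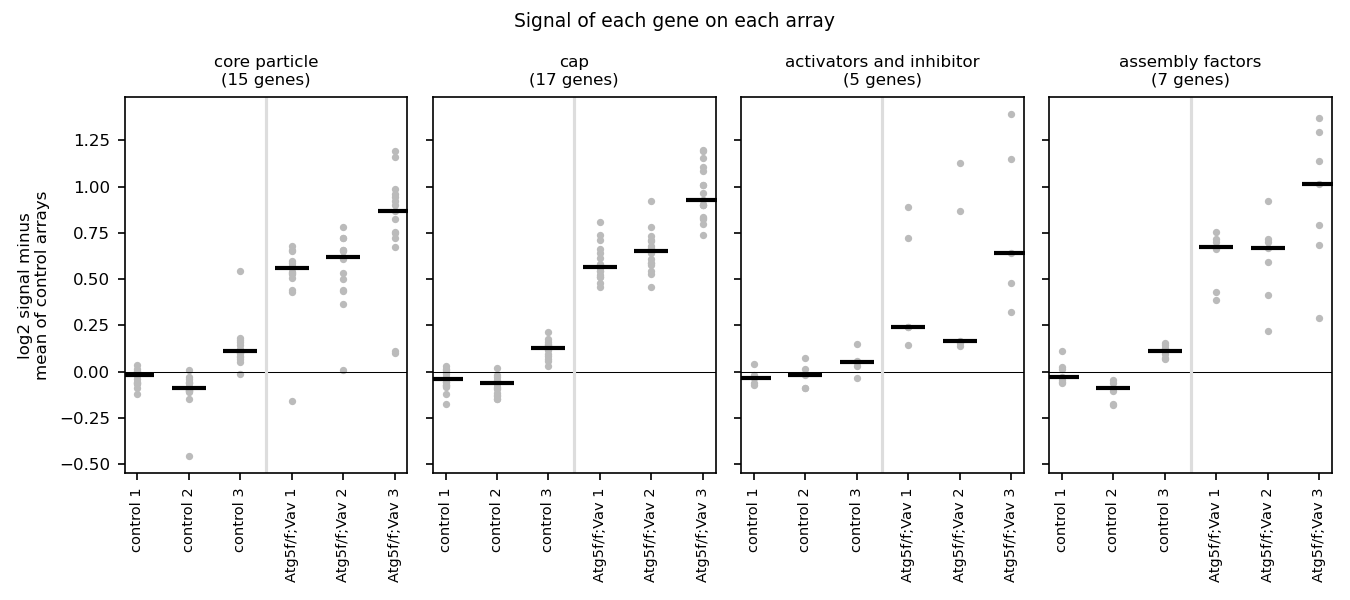
Log2 signal of each tested gene minus its mean over the control arrays (y axis), on each of the 6 arrays (x axis). Grey points are genes and black bars are medians over the genes of the panel. Core, cap and assembly medians lie between -0.09 and 0.13 on control arrays and between 0.56 and 1.01 on the others, and the activators and inhibitor spread the most.

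**Figure D3:**
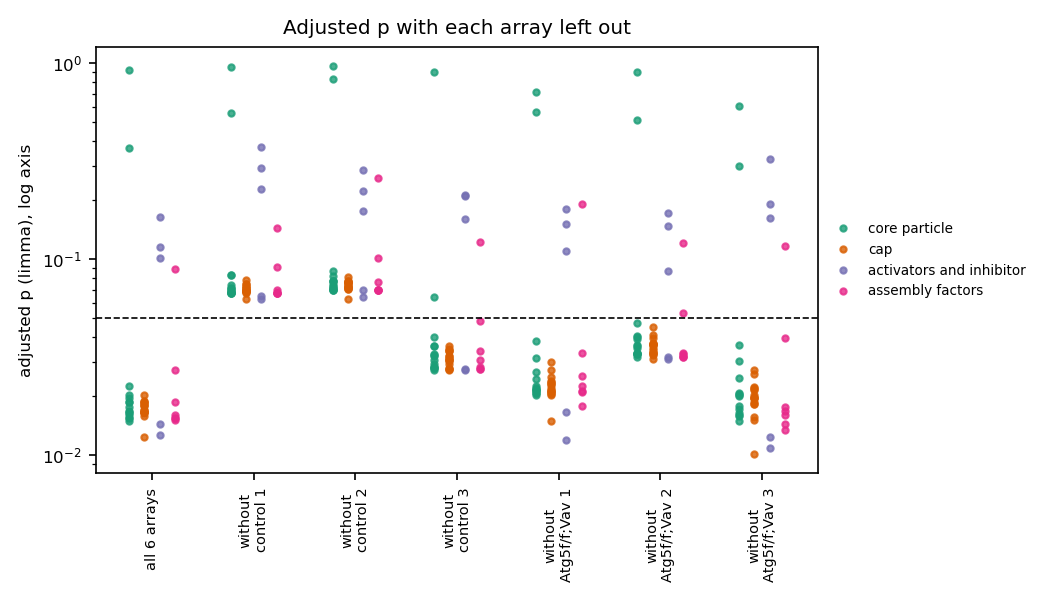
Adjusted p (limma, log axis) of each tested proteasome gene with all 6 arrays and with each array left out in turn. Points are genes, coloured by class, and the dashed line marks 0.05. No gene lies under the line without control replicate 1 or 2.

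In the core particle, 13 of 15 genes tested rose and none fell, with a median of 0.67. All 7 alpha subunits of the standard ring, *Psma1* to *Psma7*, rose, by 0.60 to 0.88, although *Psma1*, *Psma4* and *Psma6* did not pass after quantile normalisation. *Psma5* rose most, with signals of 4.26, 4.15 and 4.36 on control arrays and 4.91, 5.04 and 5.45 on the others (difference 0.88, SE 0.16, adjusted p = 0.0165). *Psma1* rose least of the 7, from 4.09, 3.95 and 4.12 to 4.64, 4.49 and 4.81 (0.60, SE 0.13, adjusted p = 0.0186). In neither gene did the groups overlap. *Psma8*, the alpha subunit of germ cells, differed by 0.30 (SE 0.25, adjusted p = 0.371), and its control signals of -0.78, -1.15 and -0.15 enclosed those of the other group.

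The beta subunits with cleaving sites all rose. *Psmb5*, which carries the chymotrypsin-like site, had signals of 3.39, 3.28 and 3.46 on control arrays and 3.91, 3.91 and 4.28 on the others (difference 0.66, SE 0.14, adjusted p = 0.0187). *Psmb6*, with the caspase-like site, went from 5.55, 5.56 and 5.74 to 6.05, 6.12 and 6.29 (0.53, SE 0.12, adjusted p = 0.0204), the smallest rise in the core. *Psmb7*, with the trypsin-like site, went from 2.16, 2.05 and 2.27 to 2.82, 2.82 and 3.12 (0.76, SE 0.13, adjusted p = 0.0154). These groups of signals did not overlap. After quantile normalisation *Psmb7* still passed (0.53, adjusted p = 0.0238), whereas *Psmb5* (0.34, adjusted p = 0.0531) and *Psmb6* (0.16, adjusted p = 0.212) did not. Of the beta subunits without a cleaving site, *Psmb1*, *Psmb3* and *Psmb4* rose by 0.57, 0.80 and 0.70. After quantile normalisation these did not pass (adjusted p = 0.0994, 0.0521 and 0.0565, limma).

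*Psmb2* was the exception in the beta ring, and only by the probe that stood for it. Its brightest probe, the one inside the stretch that the spliced probes skip, read 1.41, 1.42 and 1.40 on control arrays and 1.25, 1.42 and 1.52 on the others (difference -0.01, SE 0.11, adjusted p = 0.927). The spliced probe at base 293 read 0.86, 0.61 and 0.91 and then 1.50, 1.46 and 1.90, a rise of 0.82 (SE 0.16, adjusted p = 0.0168). The other spliced probe rose by 0.88 (adjusted p = 0.0161). The spliced probe at base 293 moved 0.84 further than the unspliced one within arrays, with no overlap between the groups, and the exact permutation test (2-sided) gave p = 0.1, the smallest that 3 against 3 arrays allow. When only probes on RefSeq mRNAs were used, 14 of 15 core genes rose.

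In the cap all 17 genes rose, by 0.60 to 0.98, with a median of 0.70, and the groups did not overlap for any of them. Among the 6 ATPases of the base *Psmc5* rose most, with signals of 2.67, 2.77 and 2.81 on control arrays and 3.56, 3.67 and 3.95 on the others (difference 0.98, SE 0.13, adjusted p = 0.0124). *Psmc6* rose least, from 3.72, 3.68 and 3.88 to 4.28, 4.22 and 4.56 (0.60, SE 0.13, adjusted p = 0.0203). The 3 other subunits of the base measured here, *Psmd1* and *Psmd2*, which form its scaffold, and the ubiquitin receptor *Psmd4*, rose by 0.65, 0.69 and 0.76. Of the lid, which includes the deubiquitinase *Psmd14* (0.70), all 8 subunits rose. *Psmd3* had the largest rise there, from 5.05, 5.07 and 5.26 to 5.79, 5.91 and 6.32 (0.88, SE 0.16, adjusted p = 0.0164). *Psmd8* had the smallest, from 2.31, 2.15 and 2.44 to 3.01, 2.83 and 3.04 (0.66, SE 0.12, adjusted p = 0.0166). *Shfm1*, the array's name for the small lid subunit *Sem1*, lay outside the prefixes and did not pass, with signals of 5.85, 5.81 and 5.91 on control arrays and 6.09, 6.20 and 6.20 on the others (difference 0.30, SE 0.10, adjusted p = 0.0572, and -0.07 after quantile normalisation).

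The activators and the inhibitor were the most uneven class, with 2 of 5 genes past the threshold and a median of 0.35. By the mean over a gene's probes 3 of the 5 passed, with a median of 0.68. *Psme1* encodes PA28 alpha and *Psme2* encodes PA28 beta, which together form a ring on the core in the cytoplasm and are known to be induced by interferon-gamma. *Psme1* had signals of 5.19, 5.06 and 5.20 on control arrays and 5.87, 6.02 and 6.30 on the others (difference 0.91, SE 0.14, adjusted p = 0.0145). The brighter probe of *Psme2* and *Psme2b* read 5.16, 5.13 and 5.37 and then 6.11, 6.35 and 6.61 (1.14, SE 0.16, adjusted p = 0.0127), the largest rise of any of the 44 genes by its brightest probe. Its other probe, whose sequence is given above, went from 2.70, 2.71 and 2.92 to 4.06, 4.19 and 4.43, a rise of 1.45 (SE 0.14, adjusted p = 0.00597). None of these groups of signals overlapped.

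*Psme3*, PA28 gamma of the nucleus, and *Psme4*, the PA200 activator, did not pass. *Psme3* read 1.23, 1.32 and 1.36 on control arrays and 1.45, 1.44 and 1.78 on the others (difference 0.25, SE 0.13, adjusted p = 0.165). *Psme4* read 2.55, 2.55 and 2.60 and then 2.81, 2.73 and 3.21 (0.35, SE 0.15, adjusted p = 0.102). In both genes the groups did not overlap, and other probes gave other values. A second *Psme3* probe, on another transcript, rose by 0.75 (SE 0.23, adjusted p = 0.0435). A second RefSeq probe of *Psme4* differed by 0.06. The mean over the 4 *Psme4* probes was -0.15, but it includes the dim probe described next, so no direction is drawn from it. A dim *Psme4* probe on another transcript was well above background on the 3 control arrays and on no other, with mean signals of -4.42 and -4.98. Since it entered through the group where it was high, its call is not counted and no direction is drawn from it.

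Differences between the PA28 genes and the other activators were tested within arrays, as the difference of 2 log2 signals on the same array. Each gene was represented by its brightest probe, so the *Psme3* probe that rose by 0.75 was not used. *Psme1* moved 0.66 further than *Psme3* and 0.56 further than *Psme4*. The brighter probe of *Psme2* and *Psme2b* moved 0.88 further than *Psme3* and 0.78 further than *Psme4*. In each of these 4 contrasts the groups did not overlap, and the exact permutation test gave p = 0.1, the smallest possible and above 0.05, also after adjustment over the 9 contrasts tested. The median signal of the core genes was on each array that of *Psma3*, which rose by 0.80, more than the core's median rise of 0.67. Against this signal *Psme1* moved 0.12 further, with overlap, and *Psme2* and *Psme2b* moved 0.34 further, without overlap.

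*Psmf1* encodes PI31, which inhibits the core particle in the test tube, and its probes differed like those of *Psmb2*. The brighter probe, at base 2812 of the mRNA, read 0.55, 0.66 and 0.55 on control arrays and 0.83, 0.74 and 0.91 on the others (difference 0.24, SE 0.11, adjusted p = 0.115). The probe at base 536, whose sequence is given above, read -1.16, -1.25 and -0.99 and then -0.10, -0.15 and 0.22 (1.12, SE 0.14, adjusted p = 0.0112). Both were designed on RefSeq mRNAs. The second moved 0.88 further than the first within arrays, without overlap (exact permutation p = 0.1, the smallest possible).

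**Figure D4:**
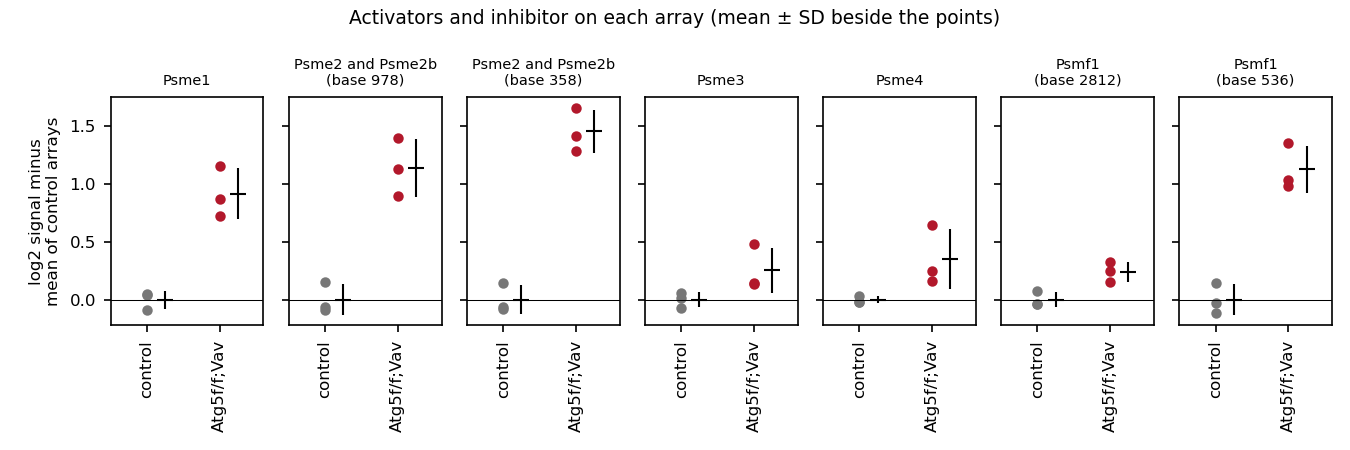
Log2 signal minus the mean of the control arrays (y axis) for the activators and the inhibitor on each array, control in grey and arrays labelled Atg5f/f;Vav in red, with the mean and SD of each group (n = 3) beside the points. The base at which a probe starts in its transcript is given where a gene has a pair of probes shown. The PA28 alpha and beta probes and the *Psmf1* probe at base 536 lie above 0.7 on every red array, and the other probes lie below 0.7.

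Assembly factors rose with the subunits, 6 of 7 passing, with a median of 0.80, or 0.56 by the mean over a gene's probes. *Psmg1* and *Psmg2* form 1 chaperone of the alpha ring and *Psmg3* and *Psmg4* another. *Psmg1* went from 3.60, 3.54 and 3.74 to 4.30, 4.22 and 4.42 (difference 0.69, SE 0.12, adjusted p = 0.0152). *Psmg2* went from 2.37, 2.34 and 2.57 to 3.09, 3.13 and 3.44 (0.80, SE 0.14, adjusted p = 0.0154). The *Psmg2* probes on other transcripts differed by 0.07 (adjusted p = 0.711, limma) and 0.81 (adjusted p = 0.0166, limma). By the brightest probes the rises in the second pair were less alike. *Psmg3* went from 1.74, 1.74 and 1.93 to 2.52, 2.52 and 2.94 (0.86, SE 0.15, adjusted p = 0.0155). The other *Psmg3* probe, on another transcript, differed by 0.09 (adjusted p = 0.690, limma). *Psmg4* went from 1.73, 1.60 and 1.78 to 2.09, 2.12 and 2.39 (0.50, SE 0.13, adjusted p = 0.0274), the smallest rise that passed, and without the second array labelled Atg5f/f;Vav its adjusted p was 0.0529.

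The chaperones of the base include the largest rise among the assembly factors. *Psmd9* had signals of 0.01, 0.01 and 0.15 on control arrays and 0.76, 0.98 and 1.43 on the others (difference 1.0, SE 0.18, adjusted p = 0.0160). *Psmd5* went from 0.91, 0.72 and 1.05 to 1.65, 1.56 and 2.19 (0.91, SE 0.19, adjusted p = 0.0186). *Psmd10*, which encodes gankyrin, read 1.64, 1.35 and 1.60 and then 1.96, 1.75 and 1.82, a difference of 0.31 that did not pass (SE 0.13, adjusted p = 0.0896), although its groups did not overlap. *Psmc3ip*, the recombination protein, rose by 0.64 (SE 0.11, adjusted p = 0.0159).

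Which transcript a probe was designed on went with how it moved. Of the 86 member probes tested, 2 belong to *Psmc3ip*. Of the other probes, 69 were designed on RefSeq mRNAs, and 61 of these rose and none fell, with a median of 0.72. Of the 15 on other transcripts, 14 were well above background in both groups, and 4 of these rose and none fell, with a median of 0.08. Over the whole array, 17.3% of probes rose and 17.1% fell (5540 and 5484 probes, or 3369 and 10089 when arrays were scaled to a percentile over detected probes), the share that rose being 22.5% of probes on RefSeq mRNAs (median 0.05) and 8.91% of those on other transcripts (median -0.23). In 13 genes both kinds were tested, and in 10 of them every RefSeq probe moved further up than every other probe. In *Psma3*, for example, both RefSeq probes rose, by 0.80 and 0.73, while the third probe differed by -0.20. In *Psmd1* the RefSeq probes rose by 0.65, 0.76 and 0.81 and the other differed by -0.01. *Psmc2* rose by 0.79 on its RefSeq probe and differed by -0.0068 on the other, and *Psmd14* rose by 0.70 and 0.75 on RefSeq probes and differed by -0.30 on the other. The 3 genes without that order were *Psmc1*, *Psme3* and *Psmg2*. The RefSeq probes that cross a splice junction numbered 17, from 14 genes, and all 17 rose, by 0.55 to 0.98.

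**Figure D5:**
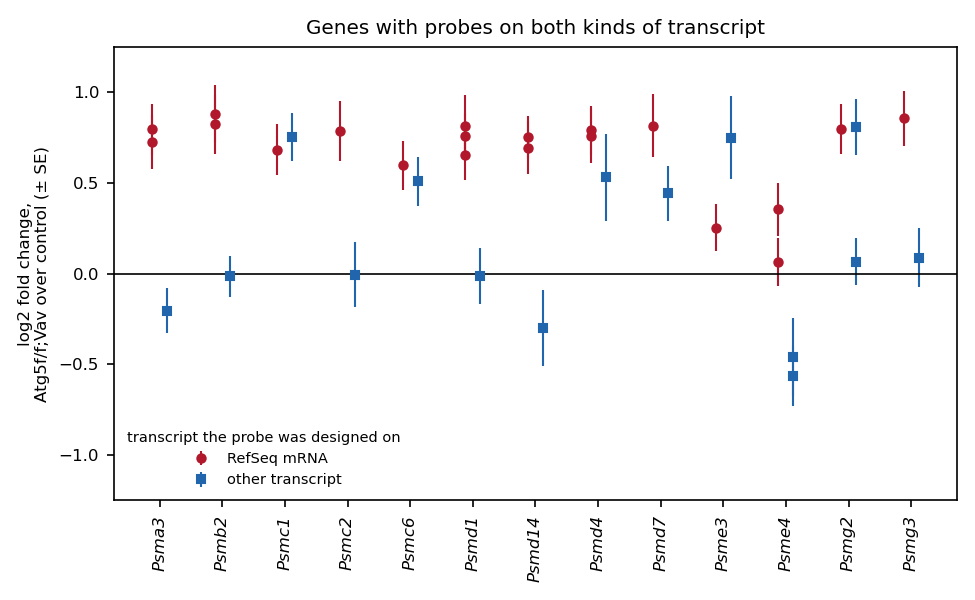
Log2 fold change with standard error of each tested probe in the 13 genes that had probes on RefSeq mRNAs (red circles) and on other transcripts (blue squares). The lowest blue square, of *Psme4*, was not well above background on the arrays labelled Atg5f/f;Vav. In 10 of the genes every red circle lies above every blue square.

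Partners of the proteasome, which help to build it, regulate it or feed it, gave a mixed picture. Of 23 listed partners 20 were found on the array by these names, and 8 rose and none fell, with a median of 0.28. Over all genes 18.7% rose and 15.3% fell. Under other scalings some partners fell and the median was lower, with 6 higher, 2 lower (*Ubqln2* and *Zfand5*) and a median of 0.11 after quantile normalisation, and 7 higher, 3 lower (these and *Ube3c*) and a median of 0.07 with the percentile over detected probes. *Uchl5*, a deubiquitinase of the cap, rose most, from 3.30, 3.23 and 3.39 to 3.96, 4.0 and 4.24 (difference 0.76, SE 0.12, adjusted p = 0.0148). *Adrm1*, the ubiquitin receptor that holds *Uchl5*, rose by 0.74 (SE 0.14, adjusted p = 0.0168). *Pomp*, the chaperone needed to close the core particle, rose from 5.56, 5.56 and 5.79 to 6.03, 6.24 and 6.41 (0.59, SE 0.14, adjusted p = 0.0228). The others that rose, by 0.60 to 0.73, were *Usp14*, a deubiquitinase, *Txnl1*, a thioredoxin-like protein bound to the cap, and *Rad23b*, *Ubqln1* and *Ubqln4*, which bring substrates. Of their tested probes 2 of 5 passed for *Usp14*, 1 of 5 for *Rad23b*, 1 of 2 for *Ubqln1* and 1 of 2 for *Ubqln4*. The lowest of these genes' probes differed by -0.38, -0.23, 0.49 and -0.05. By the mean over a gene's probes 6 partners rose. *Nfe2l1*, the transcription factor known to raise proteasome genes when the proteasome is inhibited, had control signals of 1.76, 1.82 and 1.80 and Atg5f/f;Vav signals of 2.01, 2.03 and 1.98, a difference of 0.21 that did not pass (SE 0.10, adjusted p = 0.124). *Zfand5*, a zinc-finger protein that activates the cap, had the largest difference downwards, -0.32 (SE 0.13, adjusted p = 0.0998), and -0.44 without the first array labelled Atg5f/f;Vav (adjusted p = 0.0421). Of the genes that encode ubiquitin or activate it, *Uba1* rose by 0.48 (adjusted p = 0.0363), and the other 5 of 6 did not pass.

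The inducible catalytic subunits, compared here with the constitutive ones they replace, also rose. The rises of *Psmb8*, *Psmb9* and *Psmb10* were 1.20, 1.58 and 1.47 (adjusted p = 0.00864, 0.00805 and 0.0111). *Psmb9* passed with any 1 array left out, but *Psmb8* did not without control replicate 2 (adjusted p = 0.0506), nor *Psmb10* without control replicate 1 or 2 (0.0544 and 0.0596). Within arrays *Psmb8* moved 0.54 further than *Psmb5*, *Psmb9* moved 1.04 further than *Psmb6* and *Psmb10* moved 0.71 further than *Psmb7*. The groups did not overlap in any of these contrasts. The exact permutation test gave p = 0.1 for each, the smallest possible, so it could not pass 0.05.

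Promoters were read to describe what the genes share in sequence. Of 45 proteasome genes on the array and *Psme2*, which together make 46, 38 matched a RefSeq promoter by symbol (GRCm38.p6), with 41 start sites in all. The 250 bases before each start were searched on both strands for 8 motifs, of which 6 are described. TGACNNNGC, the core of the antioxidant response element, a kind of site that *Nfe2l1* is known to bind, was found before 5 genes, *Psmb5*, *Psmb6*, *Psmc6*, *Psmd12* and *Psmd9*, which is 12.2% of the member promoters against 10.2% of all 32851. The match is shown in capitals for the catalytic subunits among them and for *Psmd9*, the assembly factor with the largest rise. Counted from the start site, its first base was at -47 for *Psmb5* (chr14:54617996-54618245, minus strand), -9 for *Psmb6* (chr11:70525107-70525356, plus strand) and -31 for *Psmd9* (chr5:123227940-123228189, plus strand).
Psmb5 promoter: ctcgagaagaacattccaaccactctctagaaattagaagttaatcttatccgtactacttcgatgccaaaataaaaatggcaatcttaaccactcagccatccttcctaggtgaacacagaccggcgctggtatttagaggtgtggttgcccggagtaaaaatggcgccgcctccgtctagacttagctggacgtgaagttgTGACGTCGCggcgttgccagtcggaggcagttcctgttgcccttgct
Psmb6 promoter: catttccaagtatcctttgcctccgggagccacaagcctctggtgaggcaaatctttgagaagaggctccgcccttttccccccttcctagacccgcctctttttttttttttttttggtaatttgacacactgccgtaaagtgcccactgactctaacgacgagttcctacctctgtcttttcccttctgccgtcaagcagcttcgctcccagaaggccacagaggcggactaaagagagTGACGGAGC
Psmd9 promoter: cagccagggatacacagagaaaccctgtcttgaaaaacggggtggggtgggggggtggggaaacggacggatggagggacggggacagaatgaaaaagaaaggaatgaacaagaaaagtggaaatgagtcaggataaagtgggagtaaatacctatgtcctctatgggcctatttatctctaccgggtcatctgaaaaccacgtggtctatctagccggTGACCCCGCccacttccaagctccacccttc
The looser TGANNNNGC, which holds every TGACNNNGC match, was in 39.0% of member promoters and 35.2% of all. CCGGAAG, the core bound by Ets factors, was in 31.7% (before 12 genes, among them *Psmc1*, *Psmc2*, *Psmd2* and *Psme4*) against 6.91% of all, and the site of nuclear respiratory factor 1 (GCGC and GCGC, with any 2 bases between) was in 14.6% against 4.98%. CCAAT was in 31.7% against 33.8% and CACGTG in 7.32% against 6.02%. A match is a stretch of letters and was not tested as a site, and these shares come from 41 promoters.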

How the data were processed

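LSK RNA of 3 control and 3 Atg5f/f;Vav samples was measured on 1-colour arrays with 60-mer probes placed on mm9. Per the labels, the authors extracted values with Agilent Feature Extraction 12.0.3.1. The deposited scanner files hold an intensity per spot, corrected for background and not scaled between arrays, and the deposited table holds a normalised signal, the intensity divided by the array's own 75th percentile over all spots. From the intensity, log2 values were taken and reduced by the array's 75th percentile, computed over its 59305 non-control spots, after which spots of a probe were averaged. Outlier-flagged spots (64 to 81 an array) were left out. A probe entered the test if at least 3 of the 6 arrays showed it well above background, as did 32074 of 56605. The test was limma 3.58.1 (R 4.3.3), with lmFit and eBayes, 2-sided, and p-values adjusted by Benjamini-Hochberg over all those probes, at 0.05. Each gene was represented by its brightest tested probe. Differences within arrays were tested with exact permutation tests. The steps were tested on simulated data.

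The members, lists, motifs and tests were chosen with earlier results of these data known. The genes named in full are each activator, inhibitor and assembly factor, the catalytic subunits, the member with the largest and that with the smallest change in each ring, the base and the lid, members lower or with probes of opposite sign, members not detected, and of the partners the largest rise and fall, *Nfe2l1*, *Pomp*, *Adrm1* and *Sem1*. Others were named after their values were seen. Results were recomputed with normexp background correction (offset 50), with quantile normalisation, with a percentile over detected probes, from the deposited values, under other filters, with flagged spots kept, with an intensity trend, by the methods' t-test, with a block for replicate number, by the mean over a gene's probes, by probes on RefSeq mRNAs only (chosen after the data were seen) and without each array in turn. No spot was saturated. Marker lists of other blood and stromal cells were compared by their values. The results for 2 motifs are not reported here.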

Additional observations from a re-analysis of the deposited data

How the results depend on the processing

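The count of 38 proteasome genes that rose was 37 to 39 under normexp correction, the deposited values, a percentile over detected probes, a filter on all 6 arrays, flagged spots kept, an intensity trend, the mean over a gene's probes and probes on RefSeq mRNAs, and 30 without a filter on dim probes. Quantile normalisation gave 25, with 5 core genes, and a median of 0.36 in place of 0.69. The percentile over detected probes moved the median of all probes by -0.21 and the split over all probes from 5540 higher and 5484 lower to 3369 and 10089. It gave a proteasome median of 0.48, and relative to the median of all probes that median was 0.75 in both settings, against 0.37 after quantile normalisation. The mean over a gene's probes shared 36 of its calls with the brightest probe, losing *Psmc2* and *Psmd14* and gaining *Psmb2* and *Psmf1*. With the replicate number as a block the count was 38, and no proteasome gene changed its call. The correlations of same-numbered deviations were -0.07, 0.19 and 0.11, and those of differently numbered ones between the groups were -0.30 to 0.13. With 3 arrays a group, these values cannot show whether the numbers pair the samples. Same-numbered arrays also lay in the same column of the slide. Over all probes the block gave 5261 higher and 4912 lower.

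The methods' t-test gave 40 higher proteasome genes at its unadjusted threshold and 0 after Benjamini-Hochberg adjustment, and 0 in each class and among partners. Leaving out 1 array gave counts of 0 to 38 for all genes (0 without control replicate 1 or 2), 0 to 13 for the core, 0 to 17 for the cap, 0 to 2 for activators and inhibitor, 0 to 6 for assembly factors and 0 to 9 for partners. Partners that rose numbered 4 without a filter on dim probes. The sign turned for *Psmb2* (0.00706 with the deposited values, -0.0764 to 0.0583 with 1 array left out, 0.56 for the mean of its probes and 0.82 on RefSeq probes). It also turned for *Psme4* (-0.15 for the mean of its probes), a mean that includes the dim probe whose call is not counted. Among partners it turned for *Shfm1* (-0.0729), *Akirin2* (-0.14), *Vcp* (-0.10) and *Ddi2* (-0.0559) after quantile normalisation, for *Akirin2* (-0.155) and *Ddi2* (-0.157) with the percentile over detected probes, for *Ngly1* (-0.0842 to 0.0404 with 1 array left out) and for *Ube3c* (0.24 on RefSeq probes). None of these partners passed in the analysis reported above. Of them, *Shfm1* was higher under 4 alternatives (adjusted p from 0.0160 to 0.0490, limma), *Vcp* was higher under 1 (0.0489), and *Ube3c* was lower (-0.49, adjusted p = 0.0164, limma) with the percentile over detected probes. The cause of these changes was not tested, beyond the probe used. A block for slide or scan could not be fitted, since all arrays shared 1 of each. Dim probes limit *Psma8*, *Psmb11* and the weaker *Psme4* probes.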
